A study of Mus musculus with 6 samples.

Results

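The Hox genes are a family of homeobox transcription factors, and the 39 mouse members, taken as every gene whose symbol is Hoxa, Hoxb, Hoxc or Hoxd followed by a number, were all listed among the 24848 genes of the deposited tables. RNA was sequenced from brain samples of 3 wild-type (WT) and 3 E4f1 knockout (KO) mouse embryos at E14.5, in mid gestation. E4f1 encodes a zinc finger transcription factor, and its transcript measured 20.7, 21.6 and 21.5 CPM (counts scaled to the same library total) in the WT brains, in order of replicate number as throughout, and 7.12, 7.01 and 6.92 CPM in the KO brains, so no library went against its label. The labels give both groups the tissue name Brain and each embryo its own animal number, but not the E4f1 allele, any Cre driver, the litter, or how far towards the spinal cord the tissue was cut. The animal numbers of WT 3 and KO 3 lie apart from each other and from those of the other 4 embryos, which are close together, and the labels do not say what the numbers stand for. The libraries held between 42113465 and 74064707 read pairs assigned to genes, and Spearman's correlation of their levels across genes lay between 0.970 and 0.994.

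In vertebrates the Hox genes lie in 4 clusters, and genes at the same position in different clusters form a paralog group, numbered from 1 at the head end to 13 at the tail end. Along the neural tube the low-numbered groups are switched on in the hindbrain and the higher-numbered groups in the spinal cord, while forebrain and midbrain lack Hox transcripts. A brain sample therefore carries Hox RNA mainly through the hindbrain it includes, and Hox genes are also transcribed outside the nervous system, in skin, mesenchyme and gut. Bulk RNA cannot tell fewer cells of a kind from less RNA per cell, and this holds for every level given here.

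Hox transcripts were close to absent from all 6 libraries. Of the 39 genes, 12 had no count in any library, which allows each a level of up to 0.00829 CPM (3 counts in the 361497912 read pairs of all libraries together), and 13 had between 1 and 9 counts in total. At least 10 counts in some library were reached by 8 genes, among them Hoxa5, Hoxc4, Hoxd1, Hoxd3, Hoxd4, Hoxd8 and Hoxd9, and 1 gene, Hoxd8, reached 50. No Hox gene exceeded 2.21 TPM (transcripts scaled to length and to a fixed library total), the level of Hoxd8 in WT 3, whereas Neurod6, a gene of cortical neurons, lay between 278 and 615 TPM. A reading of hindbrain tissue from Hox genes thus rests here on very few read pairs.

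The HoxD cluster on chromosome 2 held most of the Hox counts in WT 3 and in the 3 KO brains, though not in WT 1 or WT 2. Its 5 genes with at least 10 counts in some library were highest in WT 3 and next in KO 2. Of these only Hoxd8 reached 10 counts outside WT 3, so the cut favours WT 3. Upstream stretches of 3 HoxD genes are shown: Hoxd8 and Hoxd9, which follow that shared pattern, and Hoxd13, which does not show it. Hoxd13 had only 4 counts in WT 1 and 1 in KO 3, too few to read a pattern from. A link between these sequences and the counts was not tested. The sequences are from RefSeq (GRCm38.p6), cover bases 250 to 51 before the annotated start, and carry each CpG in capitals.
Hoxd8, chr2:74704365-74704564, + strand: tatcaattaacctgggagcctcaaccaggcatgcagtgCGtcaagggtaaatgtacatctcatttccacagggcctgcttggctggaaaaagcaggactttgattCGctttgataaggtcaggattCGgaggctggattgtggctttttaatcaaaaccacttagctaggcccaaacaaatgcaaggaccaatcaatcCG
Hoxd9, chr2:74697513-74697712, + strand: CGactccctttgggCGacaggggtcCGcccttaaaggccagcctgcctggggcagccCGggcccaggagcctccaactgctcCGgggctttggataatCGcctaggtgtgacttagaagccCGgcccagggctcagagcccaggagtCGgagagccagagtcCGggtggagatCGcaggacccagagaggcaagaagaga
Hoxd13, chr2:74667975-74668174, + strand: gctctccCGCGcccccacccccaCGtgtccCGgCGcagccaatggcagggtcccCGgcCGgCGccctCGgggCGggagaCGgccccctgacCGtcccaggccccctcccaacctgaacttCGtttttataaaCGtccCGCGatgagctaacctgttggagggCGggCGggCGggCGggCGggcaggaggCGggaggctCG
The stretch before Hoxd8 held 4 CpG and 46.5% G and C, that before Hoxd9 held 10 CpG and 65.5%, and that before Hoxd13 held 23 CpG and 74.0%. Over all 32841 promoter windows of this length the median was 4 CpG and 51.5% G and C, and over the 24 windows matched to 22 Hox genes the median was 58.0%. A search of both strands for TGACGTNA, the motif of E4F1 and of ATF factors, matched 0 of the 24 Hox windows, against 1.5% of all windows. With 24 windows, 0 matches cannot be told from that share. The TATA box letters TATAAA occurred in 3 of the 24 windows, Hoxd13 among them, and in 9.1% of all windows. The window stops 51 bases before the annotated start, so the stretch next to the start was not searched. TGATNNAT, a PBX and HOX motif, occurred in 3 Hox windows and 6.4% of all, and TTTATG, a CDX motif, in 4 and 8.8%. These are letter matches within a short window and say nothing of binding.

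Summed over the family, Hox genes took 60, 31 and 292 counts in the WT brains and 42, 103 and 38 counts in the KO brains. As CPM after TMM scaling the sums were 0.806, 0.754 and 4.39 in the WT brains and 0.588, 1.80 and 0.745 in the KO brains. WT 3 stood far above every other library and KO 2 came next, while the other 4 libraries lay close together and the groups overlapped. Counting error alone does not bridge that gap: the exact Poisson 95% interval was 259 to 327 counts in WT 3 and 84.1 to 125 in KO 2, against 45.8 to 77.2 in WT 1, which was sequenced most deeply. Such intervals cover counting error only. The group means were 1.98 ± 2.09 CPM in WT and 1.05 ± 0.66 in KO (SD, n = 3 each), a log2 ratio of -0.92. Without WT 3 the log2 ratio was 0.42, so its direction rested on that library. Any count at all was found for 14, 13 and 21 Hox genes in the WT brains and for 17, 18 and 14 in the KO brains. With at least 10 counts there were 2, 0 and 8 genes in the WT libraries and 1 in each KO library.

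**Figure D1:**
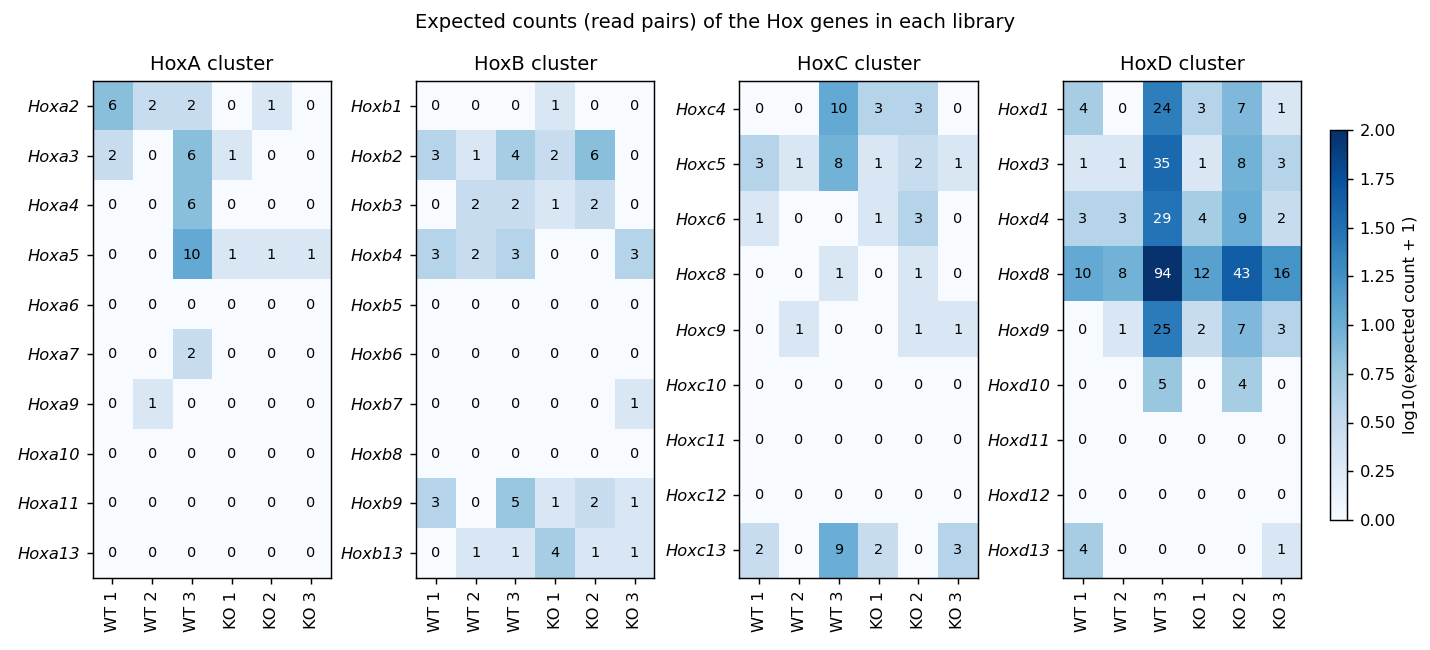
Expected counts (read pairs) of 38 Hox genes (rows, by cluster and number) in each of the 6 libraries (columns), with the number printed in each cell and the colour on a log10 scale of the count plus 1. HoxD genes 1 to 9 are darkest in WT 3 and next in KO 2, Hoxa2 has counts mainly in the WT columns, and 12 rows are 0 throughout.

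The most anterior paralog groups, 1 and 2, pattern the hindbrain, and Hoxa2 is the Hox gene with the most anterior limit of all. TPM summed over Hoxb1 and Hoxd1 of group 1 came to 0.08, 0.00 and 0.55 among WT and to 0.08, 0.19 and 0.03 among KO brains. For group 2 (Hoxa2 and Hoxb2) it was 0.20, 0.12 and 0.16 in WT and 0.05, 0.22 and 0.00 in KO. In both sums the WT and KO values overlapped. Hoxb1, the marker gene of the fourth hindbrain segment, had a single count in KO 1 and none elsewhere.

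Groups 3 to 5 are transcribed in the caudal hindbrain and the upper spinal cord. Group 3 summed to 0.04, 0.06 and 0.61 TPM in the WT libraries and to 0.04, 0.16 and 0.05 TPM in the KO libraries. Group 4 summed to 0.08, 0.13 and 0.90 TPM in WT and 0.12, 0.24 and 0.10 TPM in KO, and group 5 to 0.04, 0.02 and 0.35 TPM in WT and 0.03, 0.06 and 0.05 TPM in KO. In each of the 3 groups WT 3 was highest and KO 2 second, and the other 4 libraries stayed at or below 0.13 TPM.

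Groups 6 to 9 belong to the spinal cord and trunk, well behind the brain. Group 8 (Hoxb8, Hoxc8 and Hoxd8) was nonetheless the most abundant of all in WT 2, WT 3, KO 1, KO 2 and KO 3, nearly all of it Hoxd8. It stood at 0.21, 0.27 and 2.23 TPM in WT and 0.23, 1.05 and 0.46 TPM in KO, with only 8 counts in WT 2. Group 9 reached 0.04, 0.09 and 0.58 TPM in WT and 0.05, 0.23 and 0.13 TPM in KO, again with WT 3 first and KO 2 second. Groups 6 and 7 did not exceed 0.10 TPM in any library.

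The posterior groups 10 to 13 pattern the lower trunk, limbs and genitalia. Group 10 was found only as Hoxd10, with 5 counts in WT 3 and 4 in KO 2. No member of groups 11 and 12 had a count in any library. Group 13 lay between 0.04 and 0.18 TPM, through Hoxb13, Hoxc13 and Hoxd13, with the WT and KO ranges overlapping. Hoxc13, known for its part in hair and nail formation, had 2, 0 and 9 counts in WT and 2, 0 and 3 in KO.

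Taken by position along the body axis, the 11 reported members of groups 1 to 4, all with a count, summed to 0.40, 0.31 and 2.22 TPM in WT and 0.29, 0.81 and 0.18 TPM in KO. Groups 5 to 8, with 7 of 11 members found, summed to 0.27, 0.29 and 2.62 TPM in WT and 0.29, 1.21 and 0.56 TPM in KO. Groups 9 to 13, with 8 of 16 members found, gave 0.13, 0.14 and 0.88 TPM in WT and 0.20, 0.38 and 0.25 TPM in KO. Groups 1 to 4 were below groups 5 to 8 in WT 3, KO 2 and KO 3, with or without the member not reported here.

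**Figure D2:**
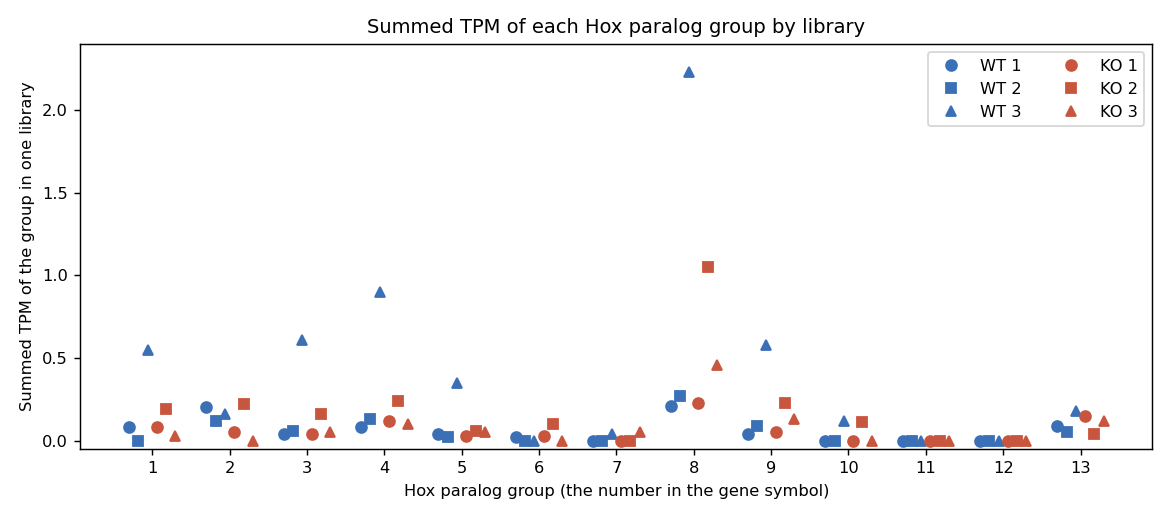
Summed TPM (vertical axis) of the Hox genes of each paralog group (horizontal axis, 1 to 13) in each library, WT in blue and KO in red, with circles, squares and triangles for replicates 1, 2 and 3. Group 1 is the sum of Hoxb1 and Hoxd1. Group 8 in WT 3 (2.23 TPM) and KO 2 (1.05 TPM) stands highest, and groups 11 and 12 are at 0 in every library.

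Hoxd8, on chromosome 2 (74704615 to 74707933, GRCm38), was the only Hox gene with enough counts to be tested across all genes. It had 10, 8 and 94 counts among the WT brains and 12, 43 and 16 among the KO brains, or 0.21, 0.27 and 2.21 TPM and 0.23, 1.03 and 0.46 TPM. The KO values all lay between the lowest and the highest WT value. The log2 fold change, KO over WT, was -0.53 ± 1.0 (SE), with an adjusted p of 0.80 by edgeR's quasi-likelihood test, and DESeq2 gave an adjusted p of 0.82. So 0 of 1 tested Hox gene was called, by either tool, and its unadjusted p of 0.62 did not pass 0.05 either. Of all 15848 genes tested, edgeR called 1.0% at an adjusted p below 0.05 and DESeq2 called 9.62%, and 19.6% had an unadjusted p below 0.05 in edgeR. Without WT 3 the log2 fold change of Hoxd8 was 1.34 ± 0.77, with an adjusted p of 0.46 by edgeR, so the sign followed that library. In the 4 embryos with close animal numbers (WT 1, WT 2, KO 1 and KO 2) it was 1.49 ± 0.85, with an adjusted p of 0.61 by edgeR. With errors of this width, a difference of the size fitted was not detectable in 3 brains a group.

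The neighbours of Hoxd8 within the cluster were also highest in WT 3 and next in KO 2, while the other 4 libraries had no common order. Hoxd9, 3′ of Hoxd10 and posterior in its limits, had 0, 1 and 25 counts in WT and 2, 7 and 3 in KO. Hoxd4, a hindbrain and cervical gene, had 3, 3 and 29 counts in WT and 4, 9 and 2 in KO. Hoxd3 had 1, 1 and 35 counts in WT and 1, 8 and 3 in KO, and Hoxd1, the most 3′ gene of the cluster, had 4, 0 and 24 counts in WT and 3, 7 and 1 in KO. In all 5 HoxD genes that reached 10 counts, WT 3 was the highest library and KO 2 the second, as CPM. Hoxd1, Hoxd3, Hoxd4 and Hoxd9 reached 10 counts in WT 3 alone, so this cut itself fixed WT 3 as their highest library by count. At the posterior end Hoxd11 and Hoxd12 had no counts, and Hoxd13 had 4 counts in WT 1, 1 in KO 3 and none in WT 3. Per length, Hoxd8 was at 2.21 TPM in WT 3 while Hoxd1, Hoxd3, Hoxd4 and Hoxd9 were between 0.47 and 0.55 TPM there. Hoxd3 and Hoxd4 share exons in the GENCODE annotation, so the division of read pairs between them is uncertain if the counting used these gene models.

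**Figure D3:**
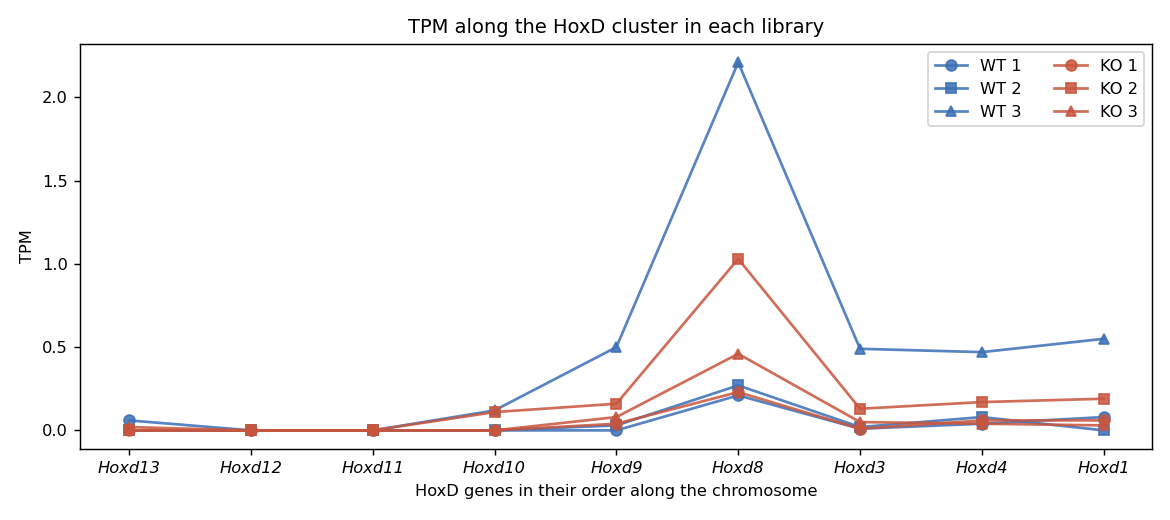
TPM (vertical axis) of the 9 HoxD genes in their order along chromosome 2 (horizontal axis) in each library, WT in blue and KO in red. WT 3 and KO 2 rise above the other 4 libraries from Hoxd9 to Hoxd1, peak at Hoxd8, and are at 0 for Hoxd11 and Hoxd12.

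As a share of all Hox counts, the HoxD cluster made up 36.7% (Wilson 95% interval 25.6 to 49.3) in WT 1, 41.9% (26.4 to 59.2) in WT 2 and 72.6% (67.2 to 77.4) in WT 3. Among the KO brains the share was 52.4% (37.7 to 66.6), 75.7% (66.6 to 83.0) and 68.4% (52.5 to 80.9). The summed HoxD level was 0.30, 0.32 and 3.19 CPM in WT and 0.31, 1.37 and 0.51 CPM in KO, with a log2 ratio of -0.80, and of 1.25 without WT 3. WT 1, WT 2 and KO 1 were alike in this sum, and no direction between the groups held without WT 3.

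Transcripts of surface epithelium were highest in the same library as the HoxD genes, WT 3, and several were next highest in KO 2. Krt5, a keratin of the basal epidermis, measured 1.07, 0.83 and 49.7 CPM in the WT brains and 4.18, 11.6 and 1.1 CPM in the KO brains. The partner keratin Krt14 stood at 0.52, 0.36 and 24.7 CPM in WT and 2.56, 6.69 and 0.55 CPM in KO. A list of 16 epithelial genes, written after these 2 keratins had been seen and including them, had counts for 16 of 16, with none at 0 in all libraries. Of the 14 genes besides Krt5 and Krt14, WT 3 was the highest library for 13, and WT 3 then KO 2 led for 8. The summed level of the 16 genes was 19.3, 33.4 and 184 CPM in WT and 42.8, 63.0 and 21.3 CPM in KO. KO 3 had more HoxD than KO 1 but less of this sum. The part of such tissue in the HoxD values was not tested. Of 10 genes of mesenchyme, skin and muscle, a list that includes Krt5 and Krt14, 9 were tested by edgeR and 0 were called, with 1 at an unadjusted p below 0.05 and 0 called by DESeq2. Its summed level was 158, 86.5 and 193 CPM in WT and 105, 142 and 148 CPM in KO. Among all tested genes edgeR called 1.0% and had 19.6% at an unadjusted p below 0.05, and DESeq2 called 9.62%.

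In the HoxA cluster on chromosome 6 the few counts lay mostly in the WT brains, and in WT 3 above all, as for HoxD. The 10 HoxA genes reported here had 8, 3 and 26 counts among the WT brains and 2, 2 and 1 among the KO brains, or 0.11, 0.07 and 0.39 CPM and 0.03, 0.04 and 0.02 CPM. Every WT library was above every KO library in this sum, which averaged 0.19 ± 0.17 CPM in WT and 0.028 ± 0.0077 CPM in KO (SD, n = 3 each), although the counting intervals of WT 2 (0.619 to 8.77 counts) and KO 2 (0.242 to 7.22 counts) overlap. Pooled over libraries, the WT rate was 7.30 times the KO rate, with an exact 95% interval of 2.86 to 23.8 that covers counting error only, and WT 3 held 26 of the 37 WT counts. The cluster was singled out after its values were seen, and the sum has no test.

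Within HoxA the WT counts came from different genes in different brains. Hoxa2 (chromosome 6, 52162417 to 52164831), also chosen after its values were seen, had 6, 2 and 2 counts in WT and 0, 1 and 0 in KO. Of the 38 Hox genes reported here it was the 1 whose groups did not overlap. Among the 19612 genes in a fit with no filter on low counts, 11.3% were lower in KO with no overlap and 12.7% higher, and 26 of the reported Hox genes were in that fit, so this count is not above the background. With 1 KO count in all, the ratio of the pooled rates of Hoxa2, WT over KO, was 9.86, with a counting interval of 1.40 to 428. Without the filter edgeR gave it an unadjusted p of 0.0315 and an adjusted p of 0.255, which does not pass the threshold. The other reported HoxA counts were in WT 3 above all, with 10 of Hoxa5, 6 of Hoxa4 and 6 of Hoxa3 there. The exons of Hoxa3 and Hoxa4 overlap antisense genes, and the strand setting of the counting is not given in the sources used here, so their read pairs may not have been kept apart. In the GENCODE annotation, exons of Hoxa2 and Hoxa3 also overlap Gm28308, a protein-coding gene on the same strand. Their counts are uncertain too if the counting used these gene models.

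In that fit without a filter 0 of the 26 Hox genes were called by edgeR, against 0.699% of all genes, and 1 was at an unadjusted p below 0.05, against 16.5% of all genes. The fold change was negative for 19 and positive for 7, with a median log2 of -1.01, against -0.004 over all genes. Most of these values come from a handful of counts and, in HoxD, from WT 3.

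The HoxB and HoxC clusters, on chromosomes 11 and 15, were found at similar low levels in both groups. HoxB genes had 9, 6 and 15 counts in WT and 9, 11 and 6 in KO, which is 0.16 ± 0.05 CPM against 0.15 ± 0.04 CPM (SD, n = 3 each). HoxC genes had 6, 2 and 28 counts in WT and 7, 10 and 5 in KO, with WT 3 again highest. Hoxb2, which is transcribed from the third hindbrain segment backwards, had 3, 1 and 4 counts in WT and 2, 6 and 0 in KO. Hoxb5, Hoxb6 and Hoxb8 had none, and the largest HoxC values were 10 counts of Hoxc4 and 9 of Hoxc13 in WT 3.

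**Figure D4:**
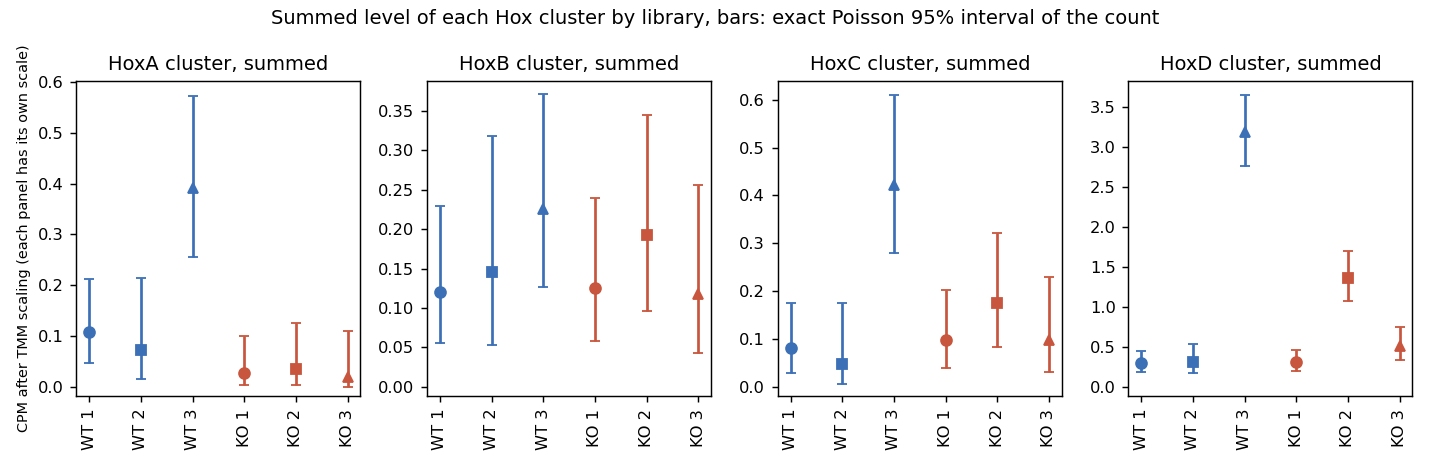
Summed CPM after TMM scaling (vertical axis, a separate scale in each panel) of the HoxA, HoxB, HoxC and HoxD genes in each library, WT in blue and KO in red, with bars for the exact Poisson 95% interval of the summed count. The HoxA panel sums 10 genes. Each cluster is highest in WT 3. In HoxA all 3 WT libraries are above every KO library, whereas the groups overlap in HoxB, HoxC and HoxD.

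Among the genes flanking the clusters, 2 homeobox genes were highest in other libraries than the HoxD genes. Evx2, a homeobox gene just beyond Hoxd13, stood at 5.01, 2.07 and 0.15 CPM in WT and 0.00, 0.09 and 0.02 CPM in KO, and Evx1, just beyond Hoxa13, at 2.08, 1.05 and 0.00 CPM in WT and 0.01, 0.04 and 0.00 CPM in KO. Both are known from a class of interneurons in the spinal cord and hindbrain, and both, named after their values were seen, were highest in WT 1 and WT 2, where HoxD was low. Of 12 flanking genes 10 were tested by edgeR and 0 were called, with 1 at an unadjusted p below 0.05 and 0 called by DESeq2. Over all tested genes these shares were 1.0%, 19.6% and 9.62%. Mtx2, on the other side of HoxD, was at 39.4, 38.4 and 37.0 CPM in WT and 37.8, 40.3 and 38.7 CPM in KO. Among 15 non-coding RNA and microRNA genes of the clusters, 10 had no count and none could be tested.

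Genes that act upstream of Hox ranged from absent to abundant. Cdx2 and Cdx4, which activate posterior Hox genes, had no counts in any library. Of 12 genes of hindbrain segmentation and retinoic acid signalling, 7 were tested by edgeR and 0 were called, with 2 at an unadjusted p below 0.05 and 1 called by DESeq2, and their median log2 fold change was -0.06. The shares over all tested genes were 1.0%, 19.6% and 9.62%, in that order. The gene called by DESeq2 was Cyp26b1, which degrades retinoic acid, at 67.5, 38.0 and 17.5 CPM in WT and 12.3, 9.67 and 10.4 CPM in KO. Its log2 fold change was -1.92 ± 0.46 (SE), with an adjusted p of 0.118 by edgeR and 0.000283 by DESeq2. With a midbrain score (averaged over Pax5, En1 and En2 on a log2 scale) as a covariate it was -0.15 ± 0.64, with an adjusted p of 0.997 by edgeR. En1 and En2 were each lower in every KO library than in any WT library, so the score is not independent of genotype. That fit called 0 of all 15848 genes and cannot tell region from genotype for Cyp26b1. Egr2, a marker of the third and the fifth hindbrain segments earlier in development, was at 0.11, 0.24 and 0.15 CPM in WT and 0.43, 0.54 and 0.51 CPM in KO, with an adjusted p of 0.107 by edgeR, and was named after its values were seen. Epha4, also a segment gene early on, showed an adjusted p of 0.81 by edgeR.

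The partners and chromatin regulators of Hox proteins were abundant in all 6 libraries. Pbx3, a homeobox cofactor that binds DNA with Hox proteins, was at 149, 124 and 98.6 CPM in WT and 84.8, 102 and 72.1 CPM in KO, with an adjusted p of 0.211 by edgeR. Meis2, of the other cofactor family, was at 307, 355 and 391 CPM in WT and 441, 340 and 439 CPM in KO. All 9 cofactor genes were tested by edgeR and 0 were called, with 2 at an unadjusted p below 0.05 and 0 called by DESeq2, and a median log2 fold change of -0.05. For all tested genes the shares were 1.0%, 19.6% and 9.62%, in that order. Of 16 Polycomb, Trithorax and related genes, which keep Hox clusters off or on, 0 were called by edgeR, 2 were at an unadjusted p below 0.05, and 1 was called by DESeq2, with a median of 0.01. That gene, named for this call, was the Polycomb subunit Bmi1, at 97.3, 87.4 and 111 CPM in WT and 69.9, 59.6 and 80.4 CPM in KO, with an adjusted p of 0.143 by edgeR and 0.0281 by DESeq2. Ezh2, the methyltransferase of Polycomb complex PRC2, gave an adjusted p of 0.79 by edgeR.

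Markers of hindbrain neurons were highest in other libraries than the Hox sum. Fev, which marks serotonin neurons, measured 1.1, 0.73 and 0.00 CPM in the WT brains and had no counts in the KO libraries, and the noradrenaline transporter Slc6a2 stood at 3.69, 2.72 and 0.05 CPM in WT and 0.04, 0.02 and 0.16 CPM in KO. These genes, again singled out after their values were seen, were present in WT 1 and WT 2 and at or near 0 in WT 3, the library with the most Hox counts. Over the list of 14 brainstem neuron genes, WT 1 or WT 2 was the highest library for 11 and WT 3 for none. Of its 6 tested genes 0 were called by edgeR, with 1 at an unadjusted p below 0.05 and 1, Tph2, called by DESeq2. Its summed level was 111, 75.5 and 52.5 CPM in WT and 37.9, 65.3 and 28.1 CPM in KO. Among all tested genes edgeR called 1.0% and had 19.6% at an unadjusted p below 0.05, and DESeq2 called 9.62%.

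The genes of the midbrain and its border with the hindbrain, where no Hox gene is transcribed, were highest in WT 1 or WT 2 for 7 of the 9 listed. En2 stood at 45.0, 19.9 and 1.02 CPM in WT and 0.07, 0.68 and 0.08 CPM in KO, and En1 at 18.6, 10.4 and 1.71 CPM in WT and 0.11, 0.86 and 0.96 CPM in KO. All 9 listed genes were tested by edgeR and 0 were called, against 1.0% of all tested genes. By edgeR 5 were at an unadjusted p below 0.05, all lower in KO, against 19.6% of all tested genes in either direction. DESeq2 called 4 as lower, against 9.62% of all tested genes called in either direction. The fold change was positive for the other 2, the signalling genes Fgf8, at 0.34, 0.34 and 0.45 CPM in WT and 0.53, 0.60 and 0.51 CPM in KO, and Fgf17, highest in KO 3 at 3.80 CPM. The list summed to 150, 66.5 and 29.1 CPM in WT and 24.4, 35.9 and 19.4 CPM in KO. Of 9 genes of the cerebellum and rhombic lip, 7 were tested by edgeR and 0 were called by it or by DESeq2, with 0 at an unadjusted p below 0.05. For the telencephalon 0 of 10 tested genes were called by edgeR, 2 were at an unadjusted p below 0.05, and 2, Dlx2 and Dlx5, were called higher by DESeq2. Its summed level ran from 1344 CPM in WT 1 and 1516 CPM in WT 2 to 2225 CPM in WT 3, and was 2206, 1608 and 2497 CPM in the KO brains.

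Set beside each other, WT 1 and WT 2 had the highest brainstem and midbrain sums with 60 and 31 Hox counts, and WT 3 had lower sums with 292 Hox counts. The KO brains had 38 to 103 Hox counts, with a brainstem sum in KO 2 (65.3 CPM) not far below that of WT 2 (75.5 CPM). HoxA was the cluster whose reported counts, as CPM, were above the KO libraries in WT 1 and WT 2 as well as in WT 3. This was seen afterwards and rested, in WT 2, on 3 counts against 2, 2 and 1 in the KO brains. WT 3 held 26 of the 37 WT counts. Among all genes in the fit without a filter, 11.3% were lower in KO with no overlap. How much hindbrain each sample contained was not measured, and the region sampled and the genotype cannot be told apart where they vary together. The meninges list summed to 366, 2368 and 817 CPM in WT and 321, 440 and 4714 CPM in KO, and the ganglia list to 56.2, 35.0 and 16.7 CPM in WT and 11.1, 19.1 and 7.52 CPM in KO, neither in the order of the Hox sum. Erythroid genes summed to 765, 404 and 202 CPM in WT and 427, 547 and 656 CPM in KO, with WT 3 lowest. By edgeR 0 of 7 tested meninges genes, 0 of 6 ganglia genes and 0 of 7 erythroid genes were called, with 0, 0 and 1 at an unadjusted p below 0.05, and DESeq2 called 0, 0 and 1. Over all tested genes edgeR called 1.0% and had 19.6% at an unadjusted p below 0.05, and DESeq2 called 9.62%.

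**Figure D5:**
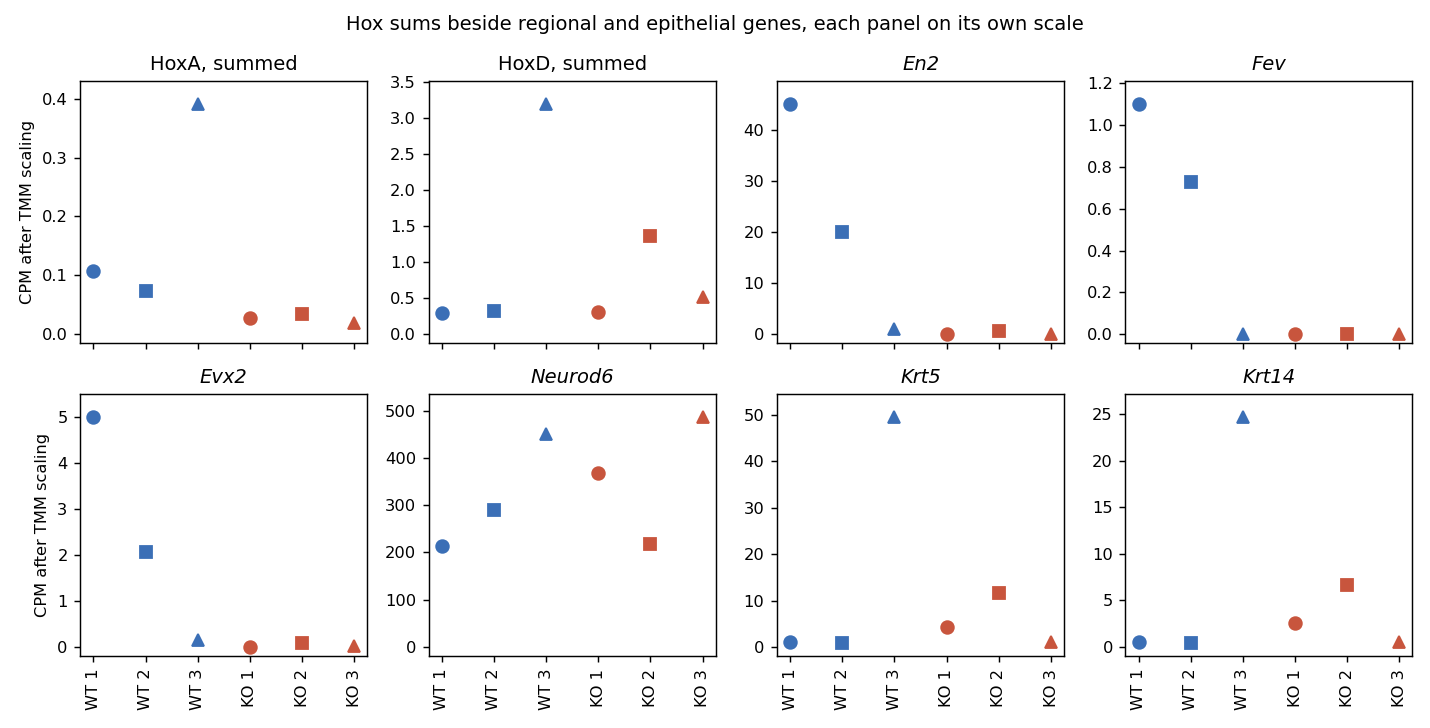
CPM after TMM scaling (vertical axis, a separate scale in each panel) of the summed HoxA (10 genes) and HoxD genes, En2, Fev, Evx2, Neurod6, Krt5 and Krt14 in each library, WT in blue and KO in red. HoxD, Krt5 and Krt14 are highest in WT 3 and next in KO 2, whereas En2, Fev and Evx2 are highest in WT 1 and WT 2.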

How the data were processed

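Messenger RNA of 6 brains was sequenced from both ends after KAPA stranded library preparation, per the labels' protocols. Per the submitters' processing notes, the tools were STAR (version 2.5.3a), RSEM (version 1.2.28), Trimmomatic and FastQC, and the builds GRCm38 and mm10; no settings are given there. The authors deposited an expected count per gene, read pairs shared out among transcripts by estimate, and a TPM, scaled to transcript length and to a fixed total, so that it keeps no depth. All Hox expected counts were within 0.005 of a whole number. The deposited FPKM were not used.

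Expected counts were rounded and tested in R (version 4.3.3) with edgeR (version 4.0.16): filterByExpr by group, TMM scaling, robust two-sided quasi-likelihood F test, Benjamini-Hochberg adjustment over all 15848 tested genes, called at an adjusted p below 0.05. DESeq2 (version 1.42.0) and limma (version 3.58.1) served as alternatives, with other scalings, filters and left-out libraries. Pairs of libraries of a group differed beyond sampling noise (chi-square per degree of freedom from 45.5 to 177) and each counts as a sample of its own; litters are not labelled, so p-values measure the spread between these samples. The test was checked on simulated counts, with changes set only in genes with more counts. Of the Hox genes only Hoxd8 had counts in that range, so the check does not cover the others.

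The Hox members, the marker lists and the alternatives were chosen with earlier results of these data known. By the rule for named genes, each Hox gene passing the filter (Hoxd8) was given with its values, and of each other list the called genes and at most the 4 with the highest mean TPM; all other genes given with values were chosen after their values were seen. All 39 symbols matched RefSeq's GRCm38.p6 table, the source of coordinates. In the GENCODE annotation, exons of 16 Hox genes overlap another gene's, 9 on the same strand and 10 on the opposite strand. The sources used here do not say whether the counting used these gene models. If it did, the counts of these Hox genes are uncertain. The values of 1 Hox gene and of some listed marker genes are not reported here; sums over the whole family and over the lists include them.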

Additional observations from a re-analysis of the deposited data

How the results depend on the processing

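No Hox gene was called under any alternative run, from 27 genes tested without a filter to 0 under both limma fits on TPM, whose filter Hoxd8 did not pass. The log2 fold change of Hoxd8 was negative in 13 of 15 alternatives; it was -2.23 with a midbrain score as covariate, 1.49 in WT 1, WT 2, KO 1 and KO 2 alone, and leaving out each library gave -1.31 to 1.34, positive without WT 3. With no filter and without WT 3, the values of Hoxd1, Hoxd3, Hoxd4 and Hoxd9 were 0.87, 1.85, 0.63 and 2.66, against -1.23, -1.48, -1.15 and -1.01 with it. Hoxa2 was negative in all 9 alternatives and not called in the 8 that gave an adjusted p (DESeq2 gave none). The summed Hox log2 ratio ranged from -1.58 to 0.42 and the HoxD ratio from -1.63 to 1.25 as each library was left out; without HoxD the Hox ratio was -1.18. Detected Hox genes were 8 at 10 counts, 27 at 1 count and 1 at 50 counts.

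Over all genes 159 were called (81 higher, 78 lower in KO) and 186 with library totals (123 and 63), against 1525 by DESeq2, 245 by limma on log2(TPM + 1), 248 on log2(TPM + 0.1), and 36 to 82 as each library was left out. WT 1, WT 2, KO 1 and KO 2 alone, and the midbrain score as covariate, gave 0 by edgeR, with 1546 and 728 at an unadjusted p below 0.05; the cause was not tested. With the replicate number as a block 66 genes were called and Hoxd8 was at -0.07; same-numbered libraries deviated together with correlations of 0.10, 0.24 and 0.08, so the numbers were not taken to pair the brains. Fits combining no filter with another choice, and the sums of HoxD, were added after the data were seen. The depth limits Hox detection to about 3 counts a library, 0.04 to 0.07 CPM.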
